A study of Mus musculus with 6 samples.

Results

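The 10 mouse genes described here are the alpha-1 antitrypsin copies Serpina1a, Serpina1b, Serpina1c, Serpina1d and Serpina1e and the Serpina3 members Serpina3c, Serpina3g, Serpina3k, Serpina3m and Serpina3n. They were taken by symbol, each through its Ensembl gene ID, and are 10 of the 37991 gene IDs counted in every library. RNA sequencing counts came from 6 livers of FVB mice aged 84 days. In 3 livers the genotype was Ing5 +/+ (WT), and in the other 3 it was Ing5 MommeD48/+ (Het), that is, heterozygous for a mutant allele of a subunit of histone acetyltransferase complexes. The comparison asked what heterozygosity for the allele does to liver transcripts. The labels number the livers without stating that each came from its own mouse, so a p-value reflects only how far these samples differ from each other, which may be technical.

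Both groups of genes belong to the serpins, proteins that trap a serine protease after it cuts an exposed reactive centre loop. Hepatocytes secrete alpha-1 antitrypsin, the main plasma inhibitor of neutrophil elastase, and the Serpina3 proteins, relatives of human alpha-1 antichymotrypsin. Each group is a single gene in humans and was multiplied in the mouse, and the copies differ most in the loop that the protease sees.

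The loop sequences are shown because they are where the copies can be told apart. They were read from GENCODE M21 transcripts (build GRCm38) and start at the glycine codon of the hinge. These are sequences of the reference genome. Whether the FVB livers carry the same copies and codons was not tested. For the alpha-1 antitrypsin copies the stretch is 30 codons long, from codon 363 to codon 392, and capitals mark bases that differ from the base most copies carry or, where no base has a majority, every base.
Serpina1a: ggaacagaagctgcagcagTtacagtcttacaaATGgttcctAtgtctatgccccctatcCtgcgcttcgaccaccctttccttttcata
Serpina1b: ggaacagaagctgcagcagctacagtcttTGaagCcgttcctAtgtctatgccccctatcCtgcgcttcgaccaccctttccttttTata
Serpina1c: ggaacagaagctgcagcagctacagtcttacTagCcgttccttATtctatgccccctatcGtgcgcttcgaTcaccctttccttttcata
Serpina1d: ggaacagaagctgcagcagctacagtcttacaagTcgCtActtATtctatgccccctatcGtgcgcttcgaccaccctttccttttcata
Serpina1e: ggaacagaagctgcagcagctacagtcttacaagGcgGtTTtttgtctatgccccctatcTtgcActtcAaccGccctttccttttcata

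Codon 15 of each stretch encodes P1, the residue just before the bond that the protease cuts. Serpina1a and Serpina1b carry a methionine codon there, Serpina1c and Serpina1d a tyrosine codon and Serpina1e a leucine codon. Over the first 18 codons, pairs of copies differed in 3 to 6 encoded residues, or 16.7% to 33.3%, while over the whole reading frame they differed in 2.66% to 7.26% of residues. Identity of the coding sequences ranged from 96.3% to 98.5% over the 10 pairs, and Serpina1a and Serpina1c were the closest pair.

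The Serpina3 loops are printed over 18 codons from the same hinge glycine, because beyond that length they could not be lined up without gaps. Capitals have the same meaning within this group.
Serpina3c: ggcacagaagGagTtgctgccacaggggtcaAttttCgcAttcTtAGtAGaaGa
Serpina3g: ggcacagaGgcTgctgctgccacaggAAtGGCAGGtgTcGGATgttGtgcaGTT
Serpina3k: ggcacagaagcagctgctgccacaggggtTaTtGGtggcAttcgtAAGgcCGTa
Serpina3m: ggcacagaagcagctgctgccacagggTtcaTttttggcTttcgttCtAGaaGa
Serpina3n: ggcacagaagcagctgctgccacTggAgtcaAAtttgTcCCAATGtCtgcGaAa

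The stretch next to the hinge is nearly the same in all 5 genes, and most capitals fall in its later codons. At the offset that holds P1 in alpha-1 antitrypsin, Serpina3c has a leucine codon, Serpina3g a cysteine codon, Serpina3k and Serpina3m an arginine codon and Serpina3n a methionine codon. Coding identity within the group ran from 38.7% to 91.1%, with Serpina3k and Serpina3m the closest pair, and the lowest values belong to pairs with Serpina3g, whose annotated frame of 248 codons is shorter than the 417 or 418 of the others. No coding identity between the groups exceeded 59.8%.

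How far a read can be given to a single copy differs between the groups. Windows of 50 bases that occur in no other annotated gene made up 19.1% of the Serpina1a transcript, 20.7% of Serpina1c, 49.1% of Serpina1d, 52.9% of Serpina1b and 62.1% of Serpina1e. For Serpina3m, Serpina3g, Serpina3k, Serpina3n and Serpina3c the shares were 80.9%, 84.0%, 86.0%, 93.1% and 95.7%. With windows of 100 bases, Serpina1a and Serpina1c reached 39.0% and 30.7%, and all Serpina3 members were above 93%. Read length, strand and the treatment of reads that match several copies are not given in the sources used here. Single alpha-1 antitrypsin copies are therefore uncertain, and the sum over the copies is given beside each of them. Any reads left out for matching several copies would be missing from the sum as well.

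**Figure D1:**
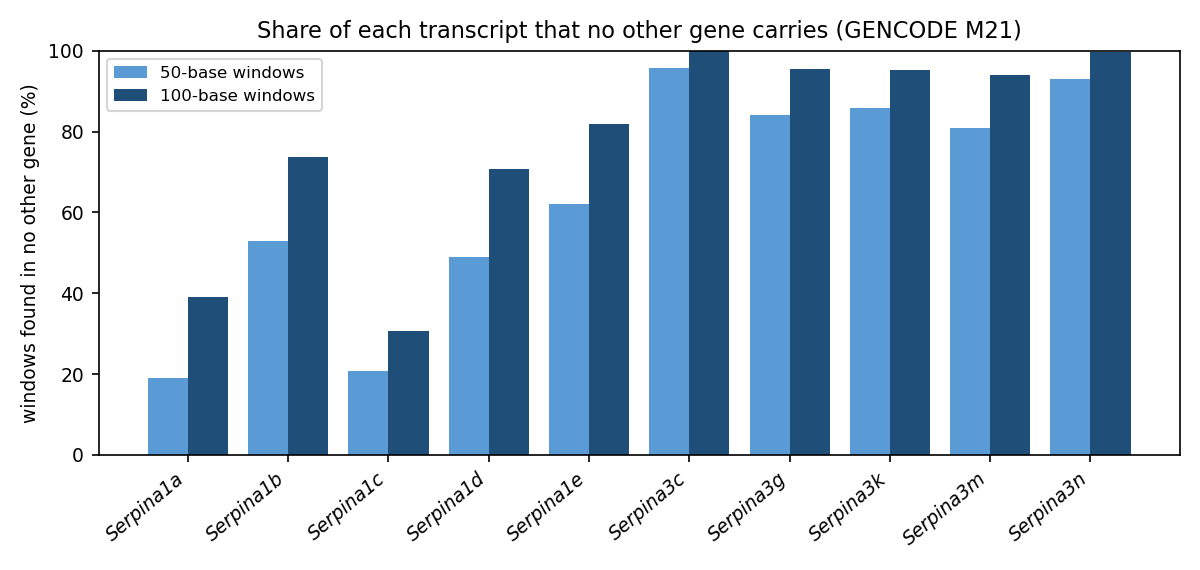
Percentage of 50-base and 100-base windows of each member's transcript (y axis) found in no other gene of the GENCODE M21 annotation, for the 10 members (x axis). Serpina1a and Serpina1c lie lowest, at 19.1% and 20.7% of 50-base windows, and the Serpina3 members all lie at or above 80.9%.

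Library totals ranged from 19840541 to 22041117 counts, and 3 counts, the limit that a count of 0 allows for counting error, correspond to 0.136 to 0.154 CPM (counts scaled to a common library size with TMM factors). Ing5 itself had 182, 228 and 191 counts in WT livers and 193, 217 and 180 in Het livers, with a log2 fold change of -0.05 ± 0.11 (SE); the labels do not say how the allele affects its transcript. Hepatocyte markers summed to 90371 to 111889 CPM, and neutrophil markers to 0.62 to 2.13 CPM with Ly6g at 0. Of 10 markers of pancreatic acinar cells, 7 were at 0 in all livers. The acinar markers summed to 38.8 to 60.7 CPM, nearly all of it Cela1, which had 38.2 to 60.5 CPM. The source of the Cela1 counts was not tested. All livers carried Ddx3y (1644 to 1956 counts) and at most 6 counts of Xist. No library was a copy of another: over all pairs the chi-square per degree of freedom was 10.2 to 79.9.

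None of the 9 members that passed the low-count filter changed between the genotypes at an adjusted p under 0.05 (edgeR quasi-likelihood fit, Benjamini-Hochberg adjusted over 12631 genes; smallest adjusted p of a member 0.9998), where 0% of all genes passed. DESeq2 called 13 genes and limma-voom 0, and no member was among them. The log2 fold change of Het over WT was positive for 7 members and negative for 2, with a median of 0.11 beside 0.00088 for all genes. At an unadjusted p under 0.05 there was 1 member, Serpina1d, higher in Het; over all genes 4.33% had such a p, and 2.12% had it with a higher Het level. All Het livers lay above all WT livers for 2 members, Serpina1a and Serpina1d, and below for 0; the shares among all genes tested were 4.72% and 4.28%. These counts over 9 related and partly indistinguishable genes are a description. In bulk liver, fewer cells of a type and less RNA per cell cannot be told apart.

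**Figure D2:**
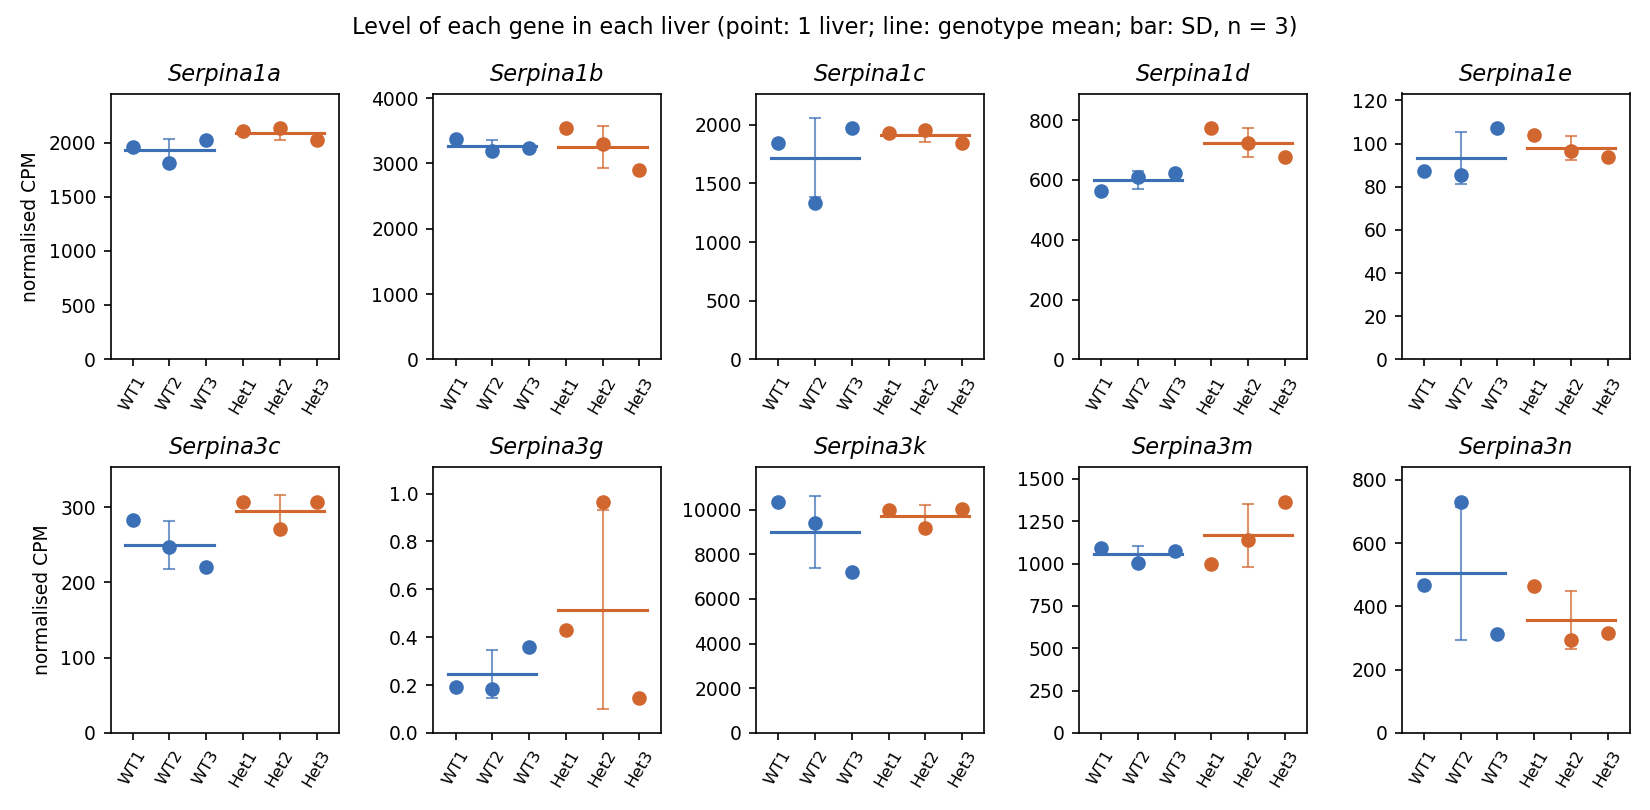
Normalised CPM (y axes, linear from 0 and scaled per gene) of the 10 members in each of the 6 livers (x axes), with the mean and SD of each genotype (n = 3). Only Serpina1a and Serpina1d have all Het points above all WT points, and Serpina3n has a single high point, WT2 at 731 CPM.

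The order of the levels was compared per kilobase of transcript, as the mean over 6 livers. Serpina3k stood highest at 4553 CPM per kilobase, with a range over livers of 3512 to 5036. Serpina1b followed at 2336 (2085 to 2539), Serpina1a at 1477 (1335 to 1568), Serpina1c at 1332 (980 to 1447), Serpina3m at 670 (601 to 824) and Serpina1d at 475 (405 to 554). Lower still were Serpina3n at 209 (143 to 354), Serpina3c at 123 (99.5 to 139), Serpina1e at 73.9 (65.8 to 82.7) and Serpina3g at 0.21 (0.081 to 0.536). Serpina1a and Serpina1c were the only neighbours in this order whose ranges over livers overlapped. Dividing by coding length instead of transcript length gave the same order. These are levels as counted. Serpina1a and Serpina1c, counted below Serpina1b, are also the copies with the fewest windows of their own, and the part of read assignment in this order was not tested.

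The alpha-1 antitrypsin copies together had 7828, 7034 and 7960 CPM in WT livers and 8448, 8202 and 7537 CPM in Het livers. WT2 was the lowest liver and Het1 the highest, and the genotypes overlapped. The means were 7607 ± 501 (SD, n = 3) and 8062 ± 472 (SD, n = 3). The log2 fold change was 0.08 ± 0.12 (SE), with a 95% interval from -0.18 to 0.35, that is, from a 0.881-fold to a 1.27-fold Het level (edgeR, adjusted p = 0.9996, in a fit where the families were summed and 0% of 12624 rows passed; exact two-sided permutation p = 0.4). The smallest p that the permutation test can give with 3 against 3 livers is 0.1.

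Serpina1b, one of the copies with methionine at P1, was the most abundant copy as counted. Of its 50-base windows 52.9% occur in no other gene, against 19.1% for Serpina1a and 20.7% for Serpina1c. The part of read assignment in this rank was not tested. Serpina1b had 3373, 3188 and 3242 CPM in WT livers and 3540, 3293 and 2906 CPM in Het livers. Het1 and Het3 were the highest and lowest of all livers, so that the WT values lay inside the Het range. The means of 3268 ± 95.2 and 3246 ± 319 CPM (SD, n = 3) gave a log2 fold change of -0.01 ± 0.12 (SE), whose sign turned without WT replicate 1 or without Het replicate 3. Serpina1a, the other methionine copy, had 1959, 1815 and 2019 CPM in WT livers and 2104, 2132 and 2021 CPM in Het livers. Its lowest Het liver lay barely above its highest WT liver, and the log2 fold change was 0.11 ± 0.11 (SE; unadjusted p = 0.333, edgeR). Serpina1a is among the copies that share most of their sequence with others, and how far read assignment moves the narrow gap between 2019 and 2021 CPM was not tested.

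Serpina1c, with tyrosine at P1, had 1844, 1334 and 1970 CPM in WT livers and 1928, 1957 and 1841 CPM in Het livers. A single liver, WT2, stood apart at the low end, and the other 5 lay close together. The log2 fold change of 0.15 ± 0.15 (SE) became 0.0018 without WT2. In that same liver Serpina1b lay within the range of the others, and the ratio of Serpina1c to Serpina1b was 0.418 there against 0.545 to 0.634 in the others.

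Serpina1d, the other tyrosine copy, had 564, 611 and 623 CPM in WT livers and 773, 723 and 675 CPM in Het livers. All 3 Het livers lay above all 3 WT livers, and the gap between the nearest pair, 623 and 675 CPM, was wider than for Serpina1a. The means were 599 ± 31.1 and 724 ± 48.7 CPM (SD, n = 3), and the log2 fold change was 0.27 ± 0.11 (SE) with a 95% interval from 0.03 to 0.51, a 1.21-fold level with an interval of 1.02 to 1.43. The unadjusted p was 0.0304 and the adjusted p 0.9998 (edgeR). With a library left out in turn, the unadjusted p ranged from 0.0199 without WT3 to 0.135 without WT1, and it was 0.0813 without Het1 and 0.0763 without Het2. Serpina1e, the leucine copy, was the rarest of the copies as counted. It had 87.3, 85.3 and 107 CPM in WT livers and 104, 96.5 and 93.6 CPM in Het livers. Its genotypes overlapped, and its log2 fold change was 0.07 ± 0.10 (SE); without WT3, which had its highest level, the unadjusted p was 0.0396 (edgeR, adjusted p = 0.431).

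**Figure D3:**
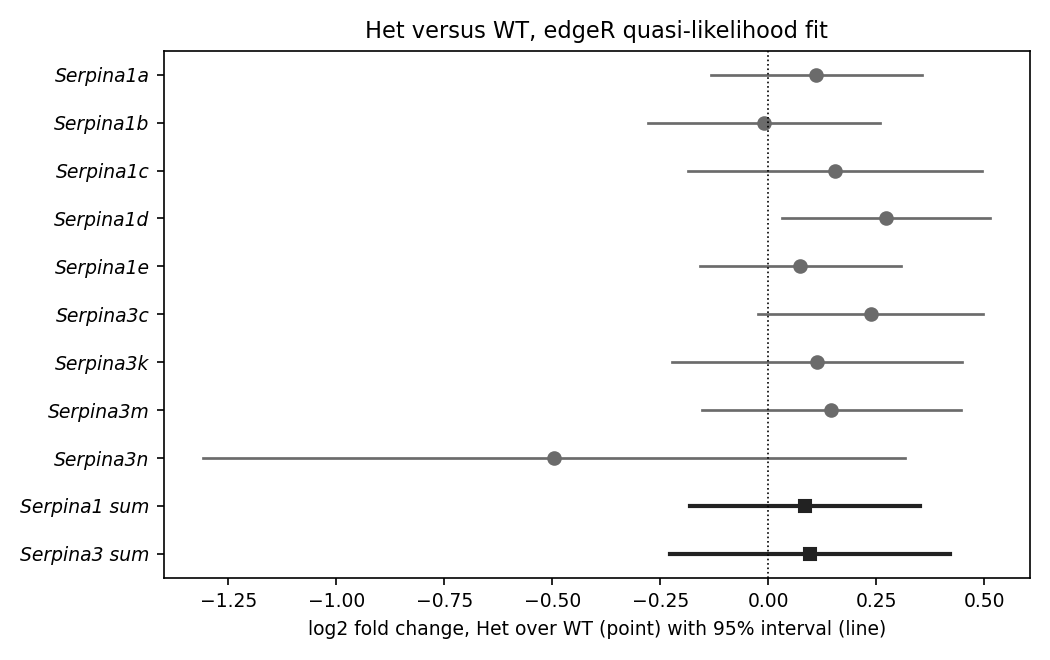
Log2 fold change of Het over WT (x axis, points) with 95% intervals (lines) from the edgeR fit for the 9 tested members and for the 2 family sums (squares). Every interval except that of Serpina1d (0.03 to 0.51) spans 0, and Serpina3n has the widest, from -1.31 to 0.32.

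Shares within a family do not depend on library size. Serpina1b made up 43.1%, 45.3% and 40.7% of the alpha-1 antitrypsin counts in WT livers and 41.9%, 40.1% and 38.6% in Het livers. The genotypes overlapped, with a difference of -2.85 percentage points (exact permutation p = 0.2, adjusted over the 10 shares 0.6). Serpina1d made up 7.20%, 8.69% and 7.82% in WT livers and 9.15%, 8.82% and 8.96% in Het livers. Every Het share was above every WT share, by 1.07 percentage points between the means of 7.90 ± 0.75 and 8.98 ± 0.16 (SD, n = 3), although the nearest livers were 8.69% and 8.82%. That separation gives the smallest possible exact permutation p of 0.1, and 0.6 after adjustment over the 10 shares. The ratio of Serpina1d to Serpina1b was 0.167, 0.192 and 0.192 in WT livers and 0.218, 0.220 and 0.232 in Het livers. This ratio was chosen after the values were seen and is given without a test.

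The copies were also grouped by the P1 codon of the reference sequence, which was not read in these FVB livers. The methionine copies held 68.1%, 71.1% and 66.1% of the alpha-1 antitrypsin counts in WT livers and 66.8%, 66.1% and 65.4% in Het livers. The tyrosine copies held 30.8%, 27.7% and 32.6% in WT livers and 32.0%, 32.7% and 33.4% in Het livers. Both groupings overlapped between the genotypes, and the exact permutation p was 0.3 for methionine and 0.2 for tyrosine, not adjusted. Serpina1e, alone with leucine, held 1.11% to 1.35% in all livers. In each liver the order as counted was the same: methionine copies above tyrosine copies above the leucine copy. Serpina1a and Serpina1c, the closest pair in coding sequence, fall in different groups. Only 19.1% and 20.7% of their 50-base windows occur in no other gene. The part of read assignment in these shares was not tested.

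**Figure D4:**
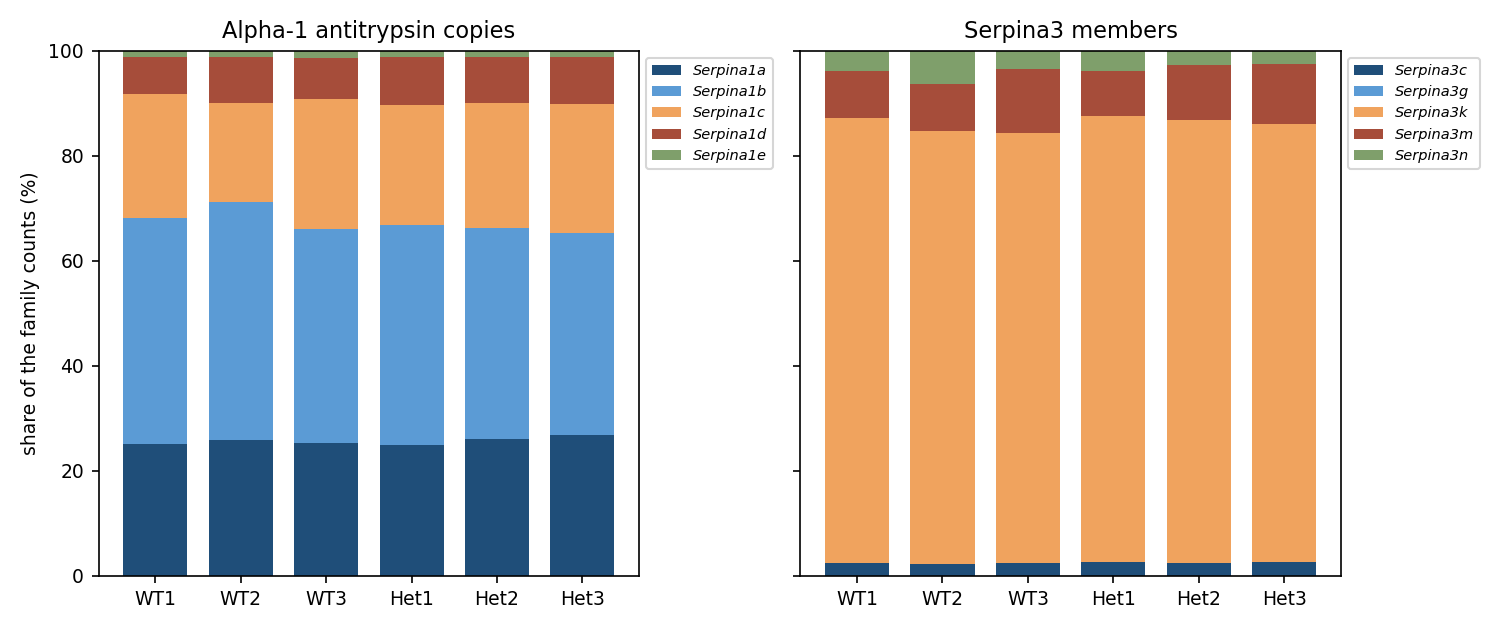
Share of each gene in the summed counts of its family (y axis, %) in each liver (x axis), for the alpha-1 antitrypsin copies (left) and the Serpina3 members (right). Serpina1b and Serpina3k take the largest part in all 6 livers, and Serpina3n takes 6.41% in WT2 and 2.62% to 3.94% elsewhere.

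The Serpina3 members together had 12202, 11397 and 8831 CPM in WT livers and 11758, 10880 and 12007 CPM in Het livers. WT3 was the lowest liver by a wide margin and WT1 the highest. The means were 10810 ± 1761 and 11548 ± 592 CPM (SD, n = 3), and the log2 fold change was 0.10 ± 0.14 (SE) with a 95% interval from -0.23 to 0.42 (edgeR, adjusted p = 0.9996; exact permutation p = 0.7). Without WT3 it was -0.03. Leaving Serpina3g and Serpina3n out of the sum gave the same exact permutation p of 0.7.

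Serpina3k, known as contrapsin, made up 81.8% to 85.0% of the Serpina3 counts and so most of their sum. It had 10359, 9419 and 7225 CPM in WT livers and 9992, 9175 and 10021 CPM in Het livers. The low sum of WT3 is that of Serpina3k, and the other 5 livers lay between 9175 and 10359 CPM. The means of 9001 ± 1608 and 9729 ± 480 CPM (SD, n = 3) gave a log2 fold change of 0.11 ± 0.15 (SE), which was -0.02 without WT3. Serpina3m, its closest relative in coding sequence, had 1091, 1001 and 1072 CPM in WT livers and 996, 1138 and 1366 CPM in Het livers. WT3 was not low for Serpina3m, and Serpina3m took 12.1% of the family counts there, its highest share. Its log2 fold change was 0.15 ± 0.13 (SE) and was 0.02 without Het3, the liver with its highest level.

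Serpina3c had 284, 247 and 220 CPM in WT livers and 307, 271 and 306 CPM in Het livers. WT1 lay above Het2, so the genotypes overlapped, while WT3 was again the lowest liver. The fit gave a log2 fold change of 0.24 ± 0.12 (SE) with a 95% interval from -0.02 to 0.50 and an unadjusted p of 0.0703 (edgeR). Without WT1 it was 0.33 with an unadjusted p of 0.0302, and without WT3 it was 0.15 with an unadjusted p of 0.175.

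Serpina3g, also called Spi2A and known from lymphoid and other blood cells, had 4, 4 and 7 counts in WT livers and 9, 21 and 3 counts in Het livers. Values this close to the 3-count floor did not pass the low-count filter, and it was not tested. Het2, with 21 counts, was also the liver with the highest summed T-cell and NK-cell markers, 5.52 CPM against 1.82 to 3.49 CPM in the others. Het1, next highest in Serpina3g with 9 counts, had the lowest sum of these markers, 1.82 CPM. Het2 also had the highest sums of Kupffer-cell markers (297 CPM) and stellate-cell markers (380 CPM). The part of any of these cells in the Serpina3g counts was not tested.

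Serpina3n, an inhibitor of granzyme B and leukocyte elastase whose transcript is known to rise in liver in the acute-phase response, varied most between livers among the 9 tested members. It had 468, 731 and 313 CPM in WT livers and 463, 295 and 315 CPM in Het livers. WT2 stood highest, WT1 and Het1 were nearly level below it, and the other 3 livers formed a low group made of both genotypes. The highest liver was 2.48 times the lowest, and the SD of log2 CPM within genotypes was 0.50, where the median over 7483 genes with a mean of at least 10 CPM was 0.119. The log2 fold change was -0.50 ± 0.34 (SE) with a 95% interval from -1.31 to 0.32 (edgeR, unadjusted p = 0.187). It was -0.13 without WT2 and -0.75 without WT3, and in the latter case the unadjusted p was 0.0450 and the adjusted p 0.450.

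A list of 26 other acute-phase genes, which holds no Serpina3 member, separated the livers in much the same way. Its score, averaged over genes as the deviation of log2 CPM from its 6-liver mean, was 0.64, 1.45 and -0.81 in WT livers and 0.45, -0.68 and -1.06 in Het livers. The livers at the top were WT2, WT1 and Het1, as for Serpina3n. In the Het versus WT fit 24 of the 26 genes had a negative and 2 a positive log2 fold change, with a median of -0.52 beside 0.00088 for all genes. Many of these genes were high in the same livers, WT2 and WT1, so this count is a description and not 24 separate results. In the edgeR fit 0 passed the adjusted threshold and 1, Saa4, had an unadjusted p under 0.05. Saa4, a serum amyloid protein of the liver, had 834, 1034 and 438 CPM in WT livers and 404, 448 and 440 CPM in Het livers, a log2 fold change of -0.84 ± 0.29 (SE; edgeR, unadjusted p = 0.0225, adjusted p = 0.9998). The low WT3 value lay among the Het values, and without WT3 the log2 fold change was -1.12 with an adjusted p of 0.0230. Without WT2 it was -0.56, and the unadjusted p was 0.0615 then, 0.0573 without WT1, 0.0699 without Het1 and 0.0610 with no low-count filter. Fgb, a fibrinogen chain, and C3, the central complement protein, were the most abundant genes of the list, with log2 fold changes of -0.34 ± 0.21 and -0.26 ± 0.23 (SE). Without WT2 these were -0.11 for Fgb and 0.02 for C3, and without WT3 they were -0.56 and -0.48. The part of this shared variation in the Serpina3n values was not tested.

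**Figure D5:**
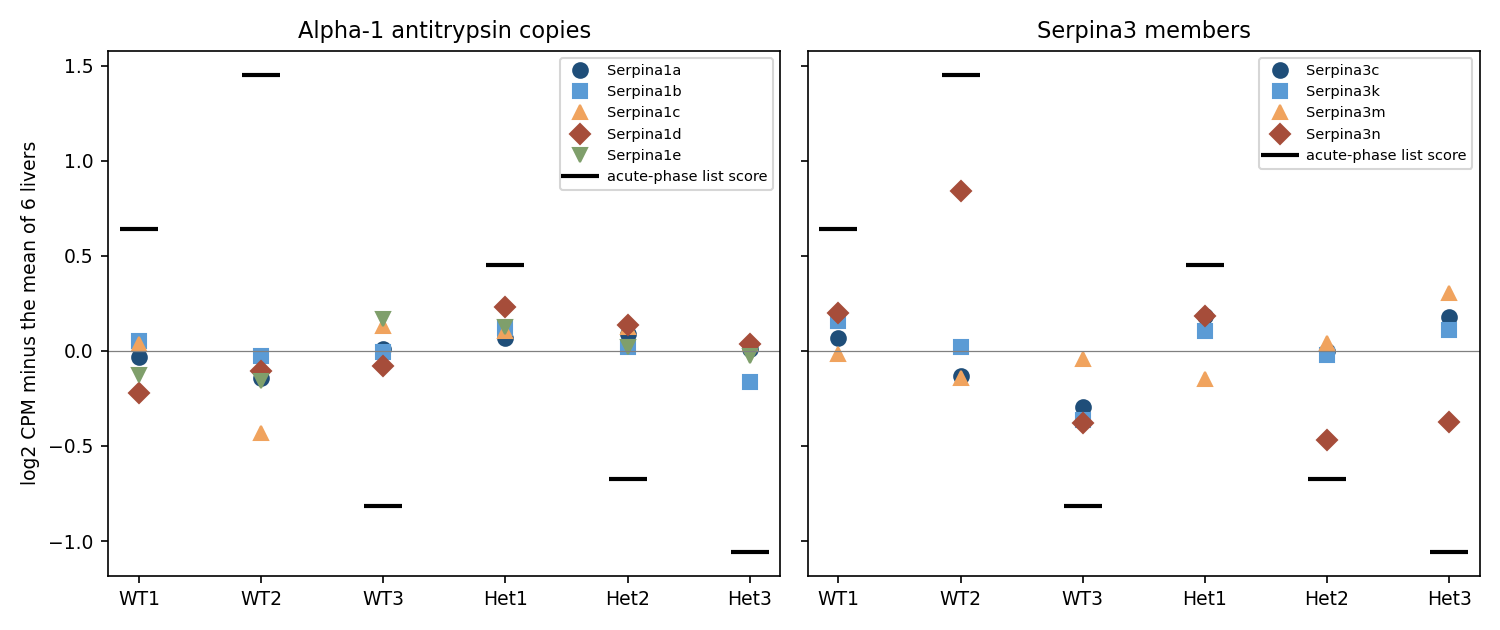
Log2 CPM minus its mean over the 6 livers (y axis) in each liver (x axis) for the alpha-1 antitrypsin copies (left) and 4 Serpina3 members (right), with the score of 26 acute-phase genes as bars in both panels. Serpina3n is high in WT2, where the acute-phase score is 1.45, and Serpina1c is low in that liver.

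The alpha-1 antitrypsin copies did not have the spread of Serpina3n: the SD of log2 CPM within genotypes was 0.06 for Serpina1a, 0.11 for Serpina1b, 0.22 for Serpina1c, 0.09 for Serpina1d, 0.14 for Serpina1e and 0.09 for their sum. It was 0.15 for Serpina3c, 0.20 for Serpina3k and 0.17 for Serpina3m. WT2, the liver with the highest Serpina3n level and acute-phase score, had the lowest level of Serpina1a, Serpina1c, Serpina1e and of the summed copies. For Serpina1e it lay close to WT1, at 85.3 against 87.3 CPM. The other livers did not follow that order. Het1, with a score of 0.45, had the highest summed copies, 8448 CPM, and Het3, with the lowest score of -1.06, had 7537 CPM, the lowest after WT2. WT2 was also the liver in which Serpina3n stood farthest above Serpina3c, with a ratio of 2.96 against 1.03 to 1.65 in the others. This ratio was likewise chosen after the values were seen and is not tested.

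The start regions of Serpina3c and Serpina3n are shown because these genes of the same cluster have nearly the same sequence there and yet differed in how far they varied between livers. Each covers 250 bases before to 50 after the start in the RefSeq table for GRCm38.p6, which matched 8 of the 10 members and had no entry for Serpina3k or Serpina3m. Serpina3c lies at chr12:104153823-104154122 on the minus strand and Serpina3n at chr12:104406458-104406757 on the plus strand, each printed along its own gene, with capitals at bases that are not matched in the other.
Serpina3c: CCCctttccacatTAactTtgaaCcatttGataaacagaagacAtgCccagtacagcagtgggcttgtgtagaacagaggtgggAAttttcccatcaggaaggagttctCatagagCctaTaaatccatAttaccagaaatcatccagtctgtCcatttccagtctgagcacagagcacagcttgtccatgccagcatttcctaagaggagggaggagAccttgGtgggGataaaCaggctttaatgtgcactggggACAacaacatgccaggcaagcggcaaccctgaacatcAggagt
Serpina3n: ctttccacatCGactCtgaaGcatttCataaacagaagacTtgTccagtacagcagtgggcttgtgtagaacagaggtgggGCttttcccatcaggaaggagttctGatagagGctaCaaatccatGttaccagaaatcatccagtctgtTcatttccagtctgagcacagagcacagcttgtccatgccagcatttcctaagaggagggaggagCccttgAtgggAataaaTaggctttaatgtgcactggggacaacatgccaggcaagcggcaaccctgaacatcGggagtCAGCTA

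These windows were identical at 93.5% of 294 aligned bases, above the 72.1% of 208 aligned bases for Serpina3c and Serpina3g. Windows of the alpha-1 antitrypsin copies were identical at 91.7% to 98.4% of aligned bases. The pairs with Serpina1e, which include the highest value, aligned over 238 to 249 bases and the other pairs over 288 to 298. Among those other pairs the highest identity was 94.9%.

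Among genes that are not members, those whose log2 CPM followed a member most closely over the 6 livers were listed by Pearson's r from 7474 candidates, so that high values arise by selection and are given as a description. For the summed alpha-1 antitrypsin copies they were Slc35a1 (r = 0.982), which carries CMP-sialic acid into the Golgi, Anxa6 (0.969) and Igfbp3 (0.947). For Serpina3c they were Tcf4, Fiz1 and Naa40, with r from 0.970 to 0.990, and for Serpina3k Ablim3, Clic4 and F13b, with r from 0.978 to 0.983. For Serpina3m they were Ulk2, Asb13 and Zfp638, with r of 0.969 or above. For Serpina3n they were Aars (0.991), Serpina10 (0.991) and Rere (0.989). Serpina10, the protein Z-dependent protease inhibitor and a neighbour on the same chromosome, had 231, 307 and 173 CPM in WT livers and 234, 182 and 177 CPM in Het livers. As for Serpina3n, WT2 was highest and WT1 and Het1 came next.

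Of 16 other genes of the Serpina cluster, 9 could be tested, and Serpina1f, Serpina16 and Gsc were at 0 in all livers. In 6 of the 9 the log2 fold change was positive and in 3 negative. The median of 0.43, beside 0.00088 for all genes, is the value of Serpina4-ps1. Serpina3f, Serpina3h, Serpina5 and Serpina9, all positive, had only 4 to 67 counts per liver. Serpina11, Serpina12 and Serpina10, at higher levels, were at 0.02, -0.25 and -0.26. In the edgeR fit 0 passed the adjusted threshold and 1, Serpina9, had an unadjusted p under 0.05, where 4.33% of all genes had such a p. Serpina9, known from germinal-centre B cells, had 27, 23 and 30 counts in WT livers and 42, 42 and 67 in Het livers. All Het livers were above all WT livers at a low count, and the log2 fold change was 0.89 ± 0.28 (SE; edgeR, unadjusted p = 0.00923, adjusted p = 0.9998). The most abundant of these genes were Serpina6, which encodes corticosteroid-binding globulin, at -0.10 ± 0.16, and Serpina4-ps1 at 0.43 ± 0.20 (log2 fold change ± SE). Serpina4-ps1 was at 0.22 without Het1 and at 0.63 without WT1. Of 15 serpins tested from other clusters, 9 had a positive and 6 a negative log2 fold change with a median of 0.003, 0 with an unadjusted p under 0.05. Serpinc1, antithrombin, was at -0.01 ± 0.12 and Serping1, the C1 inhibitor, at -0.13 ± 0.15.

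Among 16 proteases known as targets of these serpins or of their relatives, 8 were tested, with 2 positive and 6 negative log2 fold changes and a median of -0.05. The neutrophil enzymes had few or no counts in these livers: Elane, the elastase that alpha-1 antitrypsin inhibits, had at most 3 counts in a liver and Ctsg, cathepsin G, at most 1. Prtn3, proteinase 3, had 9, 82 and 1 counts in WT livers and 9, 0 and 2 in Het livers. The 82 counts were again in WT2, where neutrophil markers summed to 2.13 CPM. In WT1, with 9 counts of Prtn3, these markers summed to 2.12 CPM. Prtn3 was singled out after its values were seen. F11, coagulation factor XI, was the member of this list with an unadjusted p under 0.05. It had 128, 123 and 151 CPM in WT livers and 158, 160 and 190 CPM in Het livers, all Het above all WT, with a log2 fold change of 0.34 ± 0.11 (SE; edgeR, unadjusted p = 0.0128, adjusted p = 0.9998). The unadjusted p was 0.0544 without WT1, 0.0503 without WT2 and 0.0677 without Het3. Plg, plasminogen, and F2, prothrombin, were the most abundant, at -0.05 ± 0.14 and -0.05 ± 0.12.

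Of 25 genes that act on transcription of liver and acute-phase genes, all 25 were tested, 13 with a positive and 12 with a negative log2 fold change and a median of 0.01. No gene passed the adjusted threshold. The most abundant genes of the list were Hnf4a, a master regulator of hepatocytes, at -0.04 ± 0.15 and Ghr, the growth hormone receptor, at 0.03 ± 0.12.

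Alpha-1 antitrypsin is folded in the endoplasmic reticulum, and misfolded forms are retained there. Of 28 genes for folding and export, 15 had a positive and 13 a negative log2 fold change with a median of 0.007, and 0 had an unadjusted p under 0.05. The chaperones Calr and Hsp90b1 were the most abundant of them, at 0.12 ± 0.15 and 0.14 ± 0.17 (log2 fold change ± SE). Hsp90b1 had 820, 728 and 757 CPM in WT livers and 621, 975 and 935 CPM in Het livers. Het1 was the lowest liver and Het2 the highest, so that the spread within Het enclosed all WT livers. The value of Hsp90b1 was 0.31 without Het1 and 0.02 without Het2, and that of Calr 0.26 and -0.000386.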

How the data were processed

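Illumina TruSeq libraries were built from Trizol-extracted poly(A) RNA of 6 livers, per the labels' protocols. The submitters' processing notes name TopHat2 2.0.11, HTSeq 0.6.1, DESeq and mm9 without their roles. The authors deposited raw counts per Ensembl gene ID as whole numbers, in 1 file per library. No column of another sample was present. Genotype came from the labels.

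These counts were fitted with edgeR 4.0.16 under R 4.3.3 (filterByExpr by genotype, TMM, robust quasi-likelihood fit, genotype as the sole factor), with limma 3.58.1 and DESeq2 1.42.0 as alternatives. All 12631 genes were fitted and p-values adjusted over all of them at a threshold of 0.05. Family sums replaced the single rows in a second fit. SE and 95% intervals were derived from each gene's F statistic. Shares were compared by exact two-sided permutation tests. The scripts were tested on simulated data.

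Sequences were handled with Python 3.11.15 and Biopython 1.88: reading frames from the principal GENCODE M21 transcript and start windows from RefSeq, both of GRCm38, a build other than that of the counts. They served for lengths, sequence comparison and shared windows.

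Named genes were the 10 members, Ing5, in each of 6 lists the 2 most abundant tested genes and those with an unadjusted p under 0.05, and the 3 genes of most like pattern per target with a mean of at least 10 CPM. The quality-check and marker genes and a few named as such in the text were outside the rule. The members and lists were chosen with earlier results of these data known. Some genes that this rule names are not reported here.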

Additional observations from a re-analysis of the deposited data

How the results depend on the processing

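The number of members past the adjusted threshold was 0 in the edgeR fit and under all 14 alternatives: DESeq2 size factors, library sizes that leave out the top 20 genes, no low-count filter, a CPM above 1 in at least 3 libraries, no robust estimation, the replicate block, DESeq2, limma-voom and each library left out in turn. Members with an unadjusted p under 0.05 numbered 1 in the edgeR fit, 3 without WT3 (Serpina1d, Serpina1e and Serpina3n) and 0 without Het1, without Het2 or with the replicate block. Same-numbered livers did not all deviate together (r = -0.02, -0.08 and 0.22), and the samples were fitted as unpaired. These correlations cannot show whether the livers were paired by origin or handling. With the replicate block the log2 fold change was 0.08 for the summed alpha-1 antitrypsin copies and 0.11 for the summed Serpina3 members.

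Signs of the log2 fold changes of named genes and sums turned only when a library was left out. Their values then ranged from -0.031 to 0.187 for the Serpina3 sum, -0.0235 to 0.221 for Serpina3k, -0.0763 to 0.0641 for Serpina1b, -0.116 to 0.0077 for Ing5, -0.19 to 0.0629 for Hnf4a, -0.245 to 0.0072 for Serping1, -0.154 to 0.0521 for Plg, -0.104 to 0.0092 for F2, -0.0336 to 0.097 for Ghr, -0.481 to 0.0184 for C3, -0.188 to 0.0867 for Serpina6, -0.0600 to 0.0844 for Serpinc1 and -0.000386 to 0.263 for Calr. The cause was not tested. For the summed alpha-1 antitrypsin copies it stayed positive, from 0.031 to 0.13. The difference in the Serpina3k share was 1.14 percentage points in the whole family and -0.19 among Serpina3c, Serpina3k and Serpina3m. At 19840541 to 22041117 counts, these libraries leave Serpina3g, at 3 to 21 counts, without a usable comparison.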
